A study of Mus musculus with 6 samples.

Results

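De novo lipogenesis, the synthesis of fatty acids from acetyl-CoA in the cytosol, was examined through 10 genes, Fasn, Acaca, Acacb, Acly, Acss2, Me1, Thrsp, Srebf1, Mlxipl and Pnpla3. These genes were chosen by name, with earlier results of these data known. They were picked as the cytosolic enzymes of the pathway and its SREBP-1 and ChREBP regulators. All 10 were found among the 22040 genes of the deposited table. Expression was measured by RNA sequencing of mouse white adipose tissue, with 3 control (CTR) libraries from mice given saline by intraperitoneal injection and 3 libraries from mice given ginsenoside Rb1 (Rb1), a triterpene saponin of ginseng, by the same route at 14 mg/kg per day. By its title, the series concerns myostatin and an anti-obesity action of Rb1. The sources used here do not give strain, sex, age, diet, fat depot or how long mice were treated. They also leave unstated whether each library is a different mouse, so the p-values reflect only differences between libraries, which may be technical.

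In the pathway, citrate exported from mitochondria is split to acetyl-CoA by ATP citrate lyase, acetyl-CoA carboxylase turns acetyl-CoA into malonyl-CoA, and fatty acid synthase builds palmitate from malonyl-CoA with NADPH as the reductant. SREBP-1c, under insulin and the liver X receptor, and ChREBP, under glucose metabolites, drive transcription of the enzymes. In mouse white fat the pathway follows feeding, and its products are desaturated, elongated and stored as triglyceride.

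Total counts were 15440339 to 24501446 per library, and the 10 genes had between 843 and 57522 counts each in every library. All 10 markers of mature adipocytes were detected, with a summed level of 18637 to 21556 CPM (counts scaled to the library total) in CTR and 18808 to 24222 CPM in Rb1. Of these markers 4 had a lower and 6 a higher mean in Rb1. Without overlap, 1 was lower (Adipoq, by 1511 against 1513 FPKM) and 3 were higher (Lipe, Cfd and Aqp7), against 10.5% and 5.48% of all tested genes. All 12 skeletal muscle markers had a lower mean in Rb1, with summed levels of 393, 31239 and 446 CPM in CTR replicates 1, 2 and 3 and 38.7 to 190 CPM in Rb1, so that CTR replicate 2 stood apart. All 10 macrophage markers also had a lower mean in Rb1, at 2122 to 2463 CPM in CTR and 1260 to 1694 CPM in Rb1, and of the markers of both lists only Mb, a muscle gene, was at 0 in any library (Rb1 replicate 3). Of 8 hepatocyte markers 5 had a higher and 3 a lower mean in Rb1, and their sum was 44.6 to 139 CPM in CTR and 181 to 254 CPM in Rb1. That sum was mostly Cyp2e1, at 8.70 to 36.3 FPKM in CTR and 42.0 to 62.6 FPKM in Rb1, and Alb, at 1.59 to 4.45 FPKM in CTR and 6.10, 14.8 and 12.8 FPKM in Rb1 replicates 1, 2 and 3, while Ttr had 0 to 3 counts in each library and Apoa1 0 to 6. In Rb1 replicate 1, the library with the lowest macrophage sum, the sperm chromatin genes Prm1 and Tnp1 had 53 and 46 counts, against 3 and 1 in CTR replicate 3 and 0 in the other 4 libraries. A count of 0 allows up to 0.122 to 0.194 CPM at these depths. The part of muscle, macrophage, hepatocyte or testis transcripts in the results below was not tested. In bulk tissue, fewer cells of a type and less RNA per cell cannot be told apart.

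None of the 10 genes differed between Rb1 and CTR past the threshold, and the Rb1 libraries did not behave alike. For most of the genes Rb1 replicates 2 and 3 lay at or above the CTR level while Rb1 replicate 1 lay below it. Acacb, which encodes the mitochondrial-membrane form of acetyl-CoA carboxylase, was the 1 gene with all 3 Rb1 libraries above all 3 controls, and it was highest in Rb1 replicate 1. Thrsp, the lipogenic nuclear and cytosolic protein Spot 14, had the largest difference, with an edgeR log2 fold change of 1.09 (SE 0.43, adjusted p = 0.41). With edgeR's quasi-likelihood test and Benjamini-Hochberg adjustment over 14093 genes, 0 of 10 passed at 0.05, where 1 gene of the whole table did (0.0071%). At an unadjusted p under 0.05 there were 2 of the 10, Acacb and Thrsp, both higher, against 4.01% of all tested genes on the higher side and 7.54% on the lower side. DESeq2 also called 0 of 10, against 2.56% of its genes (0.548% higher and 2.01% lower). Counts were also simulated with the depths of these libraries and 1 fitted spread per gene, shared by both groups. There edgeR found 38% of the 2-fold changes and 89% of the 4-fold changes (13972 genes). The changed genes were drawn at random, whereas the 10 genes spread widely in Rb1 (median log2 range 1.21, against 0.26 in CTR). The percentages therefore do not give the power for these 10.

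**Figure D1:**
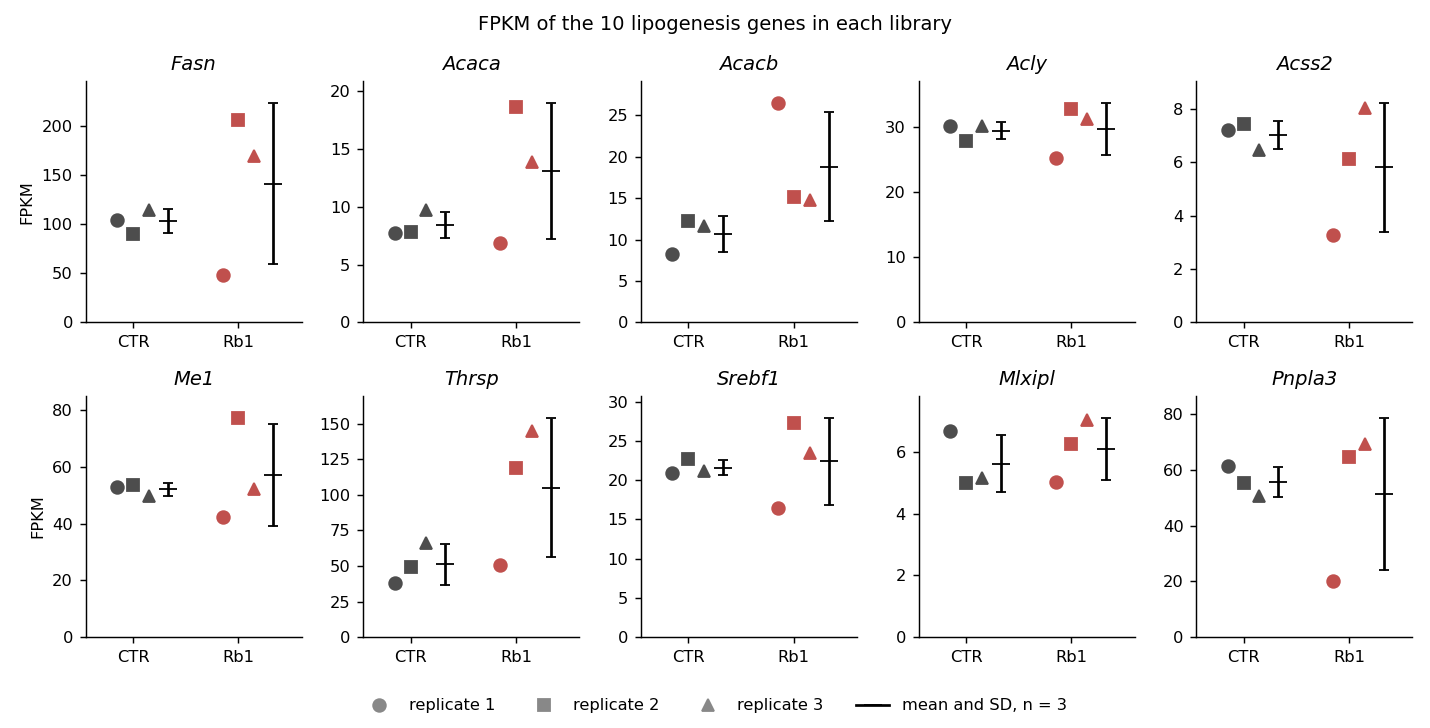
FPKM (vertical axes, linear, from 0) of each of the 10 genes in the 3 CTR and 3 Rb1 libraries, with replicate numbers as symbols and the group mean and SD (n = 3) beside them. Fasn spans 48.6 to 206 FPKM within Rb1 and 89.5 to 114 FPKM within CTR, and Acacb is the gene whose groups do not overlap.

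Levels are given as FPKM, which scales a gene's count to gene length and library total. Fasn, the fatty acid synthase gene, had 104, 89.5 and 114 FPKM in CTR replicates 1, 2 and 3, against 48.6, 206 and 169 FPKM in the Rb1 replicates in the same order. Rb1 replicate 1 was the lowest library and the other Rb1 libraries were the highest, so the groups overlap. The means were 103 ± 12.6 FPKM in CTR and 141 ± 82.1 FPKM in Rb1 (SD, n = 3 each), and the log2 fold change of 0.52 had a 95% interval of -0.66 to 1.70 (edgeR adjusted p = 0.753). Leaving out Rb1 replicate 1 gave 0.95 (adjusted p = 0.218) and leaving out Rb1 replicate 2 gave 0.12 (adjusted p = 0.962). Positions are given on GRCm38, and Fasn (ENSMUSG00000025153) is annotated at chr11:120805846-120824547 (minus strand) and shares no exon with another annotated gene.

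Acaca, the cytosolic acetyl-CoA carboxylase that supplies malonyl-CoA to fatty acid synthase, had 7.70, 7.82 and 9.69 FPKM in the CTR libraries and 6.90, 18.6 and 13.9 FPKM in the Rb1 libraries. As for Fasn, Rb1 replicate 1 was the lowest of the 6 and Rb1 replicates 2 and 3 the highest. Its log2 fold change was 0.70 (95% interval -0.16 to 1.57, edgeR adjusted p = 0.524), and 1.03 without Rb1 replicate 1 (adjusted p = 0.222) or 0.34 without Rb1 replicate 2 (adjusted p = 0.801). Acaca (ENSMUSG00000020532) is annotated at chr11:84129672-84401651 (plus strand), with no shared exon.

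Acacb, whose product makes the malonyl-CoA that restrains entry of fatty acids into mitochondria, had 8.24, 12.3 and 11.7 FPKM in the CTR libraries and 26.5, 15.2 and 14.8 FPKM in the Rb1 libraries. The groups did not overlap, and Rb1 replicate 1, the lowest library for 7 of the other genes, was here the highest. Among all tested genes the groups did not overlap for 16%, with Rb1 above CTR for 5.48% and below for 10.5%. The CTR mean was 10.7 ± 2.19 FPKM and the Rb1 mean 18.8 ± 6.61 FPKM (SD, n = 3 each), a fitted 1.78-fold difference with a log2 fold change of 0.83 (95% interval 0.23 to 1.43). Adjusted over the whole table it passed in neither tool (adjusted p = 0.309 in edgeR, 0.0525 in DESeq2). The log2 value was 0.56 without Rb1 replicate 1 and 0.94 without CTR replicate 2, the library richest in muscle transcripts, with edgeR adjusted p of 0.392 and 0.473. Acacb (ENSMUSG00000042010) is annotated at chr5:114146535-114250761 (plus strand), with no shared exon.

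The balance of the 2 carboxylase genes depended on 1 library. The ratio of Acacb to Acaca FPKM was 1.07, 1.57 and 1.20 in CTR and 3.83, 0.816 and 1.07 in Rb1. As a ratio of counts it was 0.688, 1.01 and 0.775 in CTR and 2.47, 0.525 and 0.686 in Rb1. Which of the 2 genes is higher in CTR therefore depends on the gene length used. Rb1 replicate 1 stood above all other libraries, and Rb1 replicate 2 was the lowest. The log2 ratio averaged 0.340 ± 0.285 in CTR and 0.578 ± 1.19 in Rb1 (SD, n = 3 each; two-sided exact permutation p = 1, where 3 against 3 cannot go below 0.1). Without Rb1 replicate 1 the difference in the log2 ratio changed sign, from 0.24 to -0.44 (exact permutation p = 0.2).

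**Figure D2:**
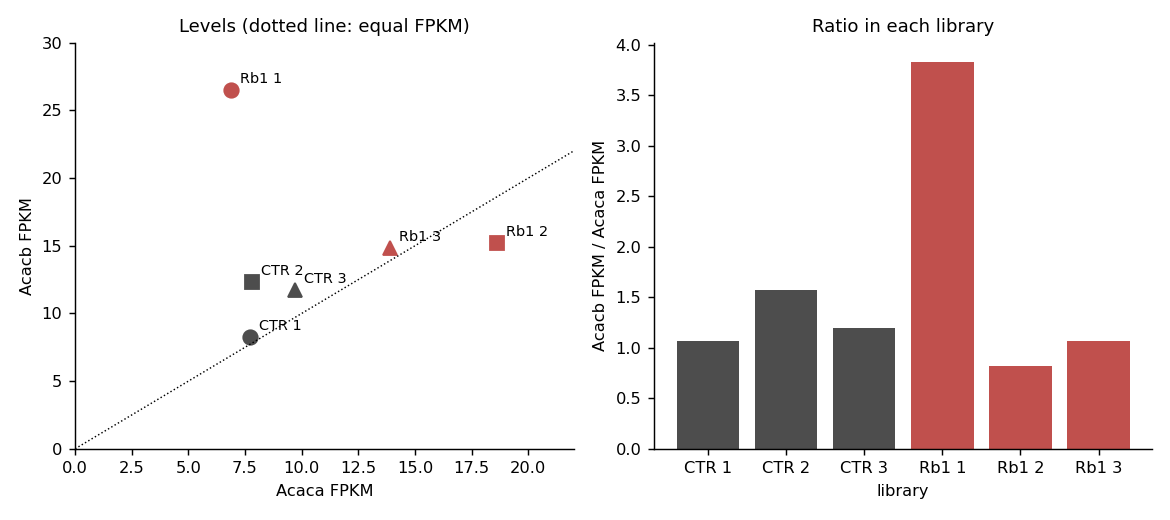
Left, Acacb FPKM (vertical) against Acaca FPKM (horizontal) in the 6 libraries, with the dotted line marking equal FPKM; right, the ratio of the 2 values in each library as bars from 0. Rb1 replicate 1 has a ratio of 3.83 and the other 5 libraries lie between 0.816 and 1.57.

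Of the genes that supply acetyl-CoA, Acly, the ATP citrate lyase gene, varied least. It had 30.1, 27.9 and 30.1 FPKM in CTR and 25.2, 32.7 and 31.2 FPKM in Rb1, with the same order of high and low Rb1 libraries as Fasn at a much smaller size. Its log2 fold change was 0.06 (95% interval -0.30 to 0.43, edgeR adjusted p = 0.912). Acss2, which makes acetyl-CoA from acetate in cytosol and nucleus, had 7.20, 7.42 and 6.44 FPKM in CTR and 3.26, 6.13 and 8.04 FPKM in Rb1. Rb1 replicate 1 held less than any control and Rb1 replicate 3 more than any, for a log2 fold change of -0.21 (95% interval -0.97 to 0.55, adjusted p = 0.855) that was 0.10 without Rb1 replicate 1. Me1, the cytosolic malic enzyme that yields NADPH, had 53.1, 53.8 and 49.6 FPKM in CTR and 42.4, 77.3 and 52.1 FPKM in Rb1, where Rb1 replicate 2 was high and Rb1 replicate 1 low. Its log2 fold change was 0.19 (95% interval -0.38 to 0.76, adjusted p = 0.825), and -0.12 without Rb1 replicate 2. Acly (ENSMUSG00000020917) is annotated at chr11:100476353-100528000 (minus strand), Acss2 (ENSMUSG00000027605) at chr2:155517948-155585724 (plus strand) and Me1 (ENSMUSG00000032418) at chr9:86581371-86695953 (minus strand). Acss2 shares exon positions with Ggt7, Gss and Acss2os, and Me1 with A330041J22Rik, all on the opposite strand, and as no source used here states whether counting used strand, their values are uncertain to that extent.

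Thrsp had 38.2, 49.1 and 66.3 FPKM in CTR and 50.5, 119 and 145 FPKM in Rb1. The value of Rb1 replicate 1 lay inside the CTR range while the other Rb1 libraries were above every control. Its mean was 51.2 ± 14.2 FPKM in CTR and 105 ± 49.0 FPKM in Rb1 (SD, n = 3 each), a fitted 2.13-fold difference whose 95% log2 interval ran from 0.08 to 2.10. Leaving out Rb1 replicate 1 gave a log2 fold change of 1.44 and leaving out Rb1 replicate 3 gave 0.76, with edgeR adjusted p of 0.218 and 0.655. Controls also varied more for Thrsp than for the other 9 genes, by 0.90 on the log2 scale between the highest and the lowest. Thrsp (ENSMUSG00000035686) is annotated at chr7:97412938-97417730 (minus strand), with no shared exon.

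Pnpla3, a lipid-droplet acyltransferase and lipase gene known to respond to SREBP-1c and ChREBP, had 61.2, 55.1 and 50.6 FPKM in CTR and 20.1, 64.7 and 69.4 FPKM in Rb1. Rb1 replicate 1 was at 0.361 times the CTR mean, the lowest such ratio of the 10 genes, and the other Rb1 libraries were above every control. These opposite positions gave a log2 fold change of -0.04 with a wide 95% interval of -1.09 to 1.01 (edgeR adjusted p = 0.985), and 0.36 without Rb1 replicate 1 (adjusted p = 0.368). Pnpla3 (ENSMUSG00000041653) is annotated at chr15:84167837-84187236 (plus strand) and shares exon positions with the predicted gene Gm49513 on the same strand.

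The genes of the transcription factors had fold changes near 0. Srebf1, which encodes SREBP-1, had 20.9, 22.7 and 21.2 FPKM in CTR and 16.4, 27.3 and 23.4 FPKM in Rb1, a log2 fold change of 0.10 (95% interval -0.41 to 0.61, edgeR adjusted p = 0.902). The Rb1 libraries lay on either side of a narrow CTR range. Mlxipl, which encodes ChREBP, was the least abundant of the 10 in CTR, with 6.67, 5.0 and 5.15 FPKM in CTR and 5.02, 6.24 and 7.02 FPKM in Rb1 (log2 fold change 0.18, 95% interval -0.24 to 0.59, adjusted p = 0.77). Its groups overlapped through CTR replicate 1 and Rb1 replicate 1. The table counts whole genes, so the SREBP-1a and SREBP-1c transcripts of Srebf1, and the alpha and beta transcripts of Mlxipl, cannot be told apart. Srebf1 (ENSMUSG00000020538) is annotated at chr11:60199089-60222581 (minus strand) and shares exon positions with Rai1 and Mir6922, and Mlxipl (ENSMUSG00000005373) at chr5:135089890-135138382 (plus strand) with Gm43500.

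**Figure D3:**
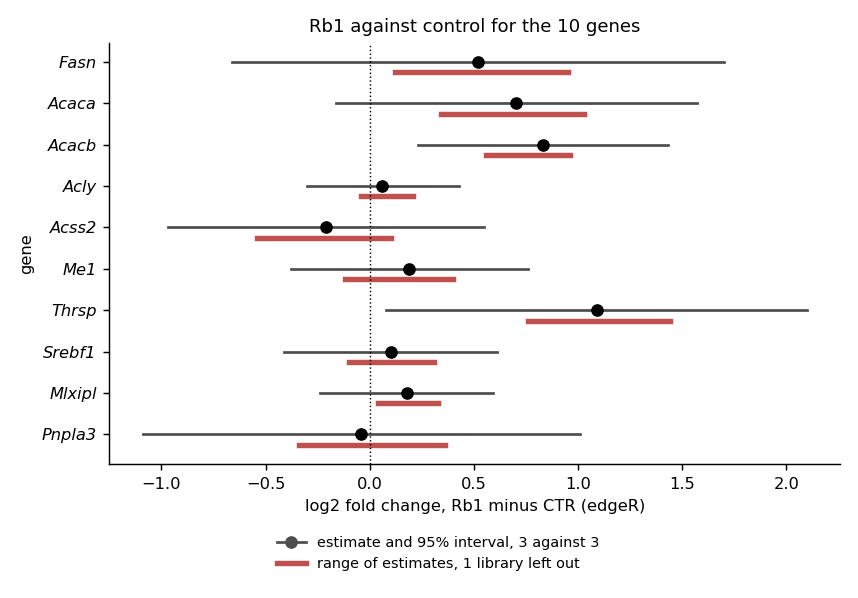
Log2 fold change of Rb1 against CTR (horizontal) for each of the 10 genes (rows), as the edgeR estimate with its 95% interval from 3 against 3 libraries in black and grey, and the range of estimates when 1 library is left out in red. The intervals of Acacb (0.23 to 1.43) and Thrsp (0.08 to 2.10), which are not adjusted for the number of genes, lie above 0, and the ranges of Acly, Acss2, Me1, Srebf1 and Pnpla3 cross 0.

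As a set, the 10 genes had a median log2 fold change of 0.18, with 8 positive. Over all 14093 tested genes the median was 0.01, with 7235 positive. The median of the 10 moved to 0.38 (10 positive) when Rb1 replicate 1 was left out, and to 0.04 (5 positive) when Rb1 replicate 2 was. The summed share of the 10 genes in the library was 0.299%, 0.283% and 0.320% in CTR replicates 1, 2 and 3. In the same order it was 0.207%, 0.514% and 0.446% in Rb1. Exact Clopper-Pearson 95% intervals, which cover counting error only, ran from 0.205 to 0.209% in Rb1 replicate 1 and from 0.510 to 0.518% in Rb1 replicate 2, the extremes. Fasn alone made up 44.0% to 49.8% of these counts in CTR, and 32.7%, 55.7% and 52.6% in the Rb1 replicates. Without Fasn the share was 0.154% to 0.161% in CTR and 0.139%, 0.228% and 0.211% in Rb1, in the same order of libraries within Rb1.

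The Rb1 libraries spread widely for this set. On TMM-scaled log2 CPM (edgeR's trimmed mean scaling), the range across the 3 Rb1 libraries was larger than that across the 3 CTR libraries for all 10 genes, as it was for 53% of all tested genes. The median range of the 10 was 1.21 in Rb1 and 0.26 in CTR, and over the 13317 genes averaging 1 CPM or more it was 0.36 and 0.33. The Rb1 range of Fasn was 2.21, larger than that of 98.6% of these genes, and those of Pnpla3 (1.91), Thrsp (1.65), Acaca (1.56) and Acss2 (1.43) exceeded 97.8%, 96.5%, 95.9% and 94.9%. In CTR, by contrast, Me1 varied by 0.09, a range larger than that of 6.41% of the genes, and Acly by 0.14 (15.2%).

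In FPKM, Rb1 replicate 1 lay below all controls for 7 of the 10 genes (24.1% of all tested genes) and above all controls for Acacb alone (32.3%). Rb1 replicates 2 and 3 both lay above all controls for 7 genes, Fasn, Acaca, Acacb, Acly, Thrsp, Srebf1 and Pnpla3 (8.95% of all tested genes). For 5 of them, Fasn, Acaca, Acly, Srebf1 and Pnpla3, the Rb1 libraries lay on opposite sides of all controls in this way, a pattern of 1.25% of all tested genes. On TMM-scaled values it held for 7 genes, with Me1 and Mlxipl added, against 2.73% of all tested genes. These positions were described after the values were seen, and no test was made of them. On the TMM scale Fasn and Acly had the same rank order over the 6 libraries, as did Me1 and Srebf1, whose orders differed in FPKM. Acacb followed none of the other 9 closely, with Pearson correlations of log2 CPM from -0.68 (Acss2) to 0.33 (Thrsp) over 6 libraries, which share depth and composition and are given as a description.

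**Figure D4:**
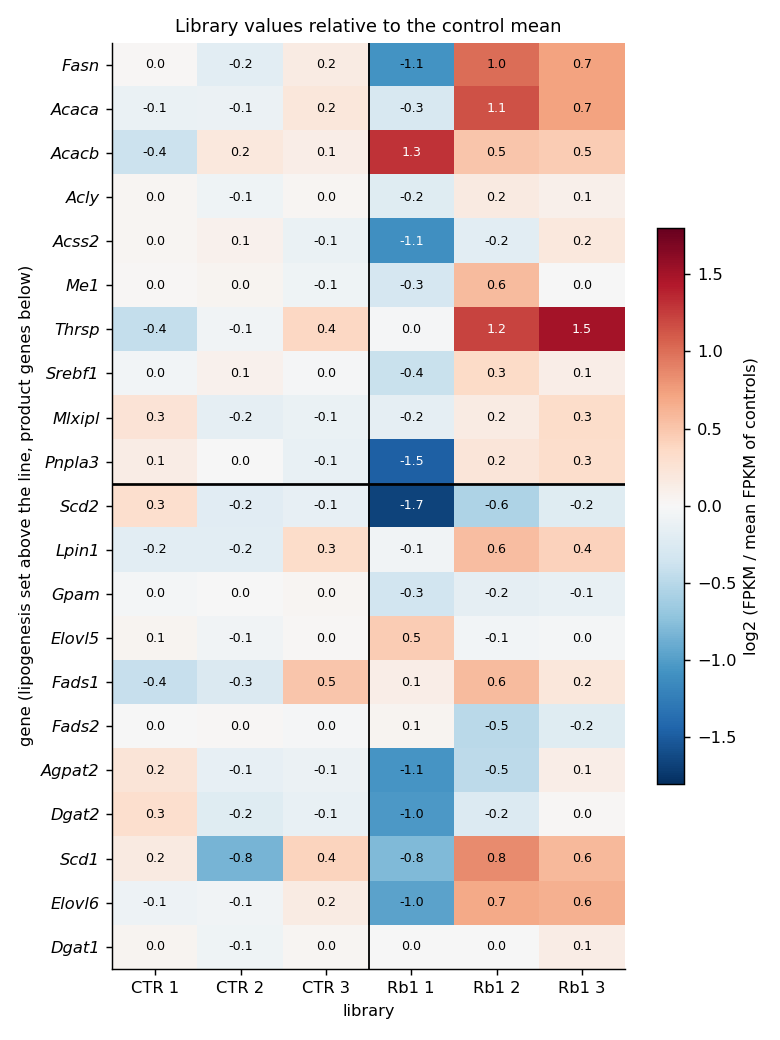
Log2 ratio of each library's FPKM to the CTR mean (color scale, with the value to 1 decimal in each cell) for the 10 lipogenesis genes above the line and 11 genes of desaturation, elongation and esterification below it, with libraries in columns. Fasn reads -1.1, 1.0 and 0.7 in Rb1 replicates 1, 2 and 3, and Acacb is positive in all 3.

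The order of levels was read in CTR, per length. Fasn was highest at 103 ± 12.6 FPKM, followed by Pnpla3 at 55.6 ± 5.33, Me1 at 52.1 ± 2.25 and Thrsp at 51.2 ± 14.2 FPKM (SD, n = 3 each), of which the last 3 did not differ beyond their spread. Acly (29.4 ± 1.29 FPKM) and Srebf1 (21.6 ± 0.920 FPKM) came next. Acacb (10.7 ± 2.19 FPKM), Acaca (8.40 ± 1.12 FPKM), Acss2 (7.02 ± 0.514 FPKM) and Mlxipl (5.61 ± 0.923 FPKM) closed the order, in small steps that were not tested. The length behind the deposited FPKM was 1.39 (Fasn) to 4.37 (Acss2) times the longest coding transcript of the GENCODE M21 annotation. For Pnpla3 it was 3.53 times that transcript. Levels between genes therefore depend on the length used. Per kilobase of that transcript, a scale added after the data were seen, Pnpla3 (196 ± 18.8 CPM per kilobase) came before Fasn (142 ± 17.4) and Thrsp (107 ± 29.8). On that scale Acss2 (30.7 ± 2.24) came before Acaca (17.9 ± 2.38) and Acacb (15.9 ± 3.24).

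Promoter sequence is shown for Fasn and Thrsp, which were highest in Rb1 replicates 2 and 3, for Acacb, whose groups did not overlap, and for Pnpla3, which was lowest in Rb1 replicate 1. Each run is the 250 bases before the RefSeq start, 5′ to 3′ on the gene's strand, and capitals mark matches on either strand to the CCAAT box (CCAAT), the GC box (GGGCGG) or the TATA box (TATAAA), with CACGTG searched as well.
Fasn (GRCm38.p6, chr11:120824548-120824797, strand -): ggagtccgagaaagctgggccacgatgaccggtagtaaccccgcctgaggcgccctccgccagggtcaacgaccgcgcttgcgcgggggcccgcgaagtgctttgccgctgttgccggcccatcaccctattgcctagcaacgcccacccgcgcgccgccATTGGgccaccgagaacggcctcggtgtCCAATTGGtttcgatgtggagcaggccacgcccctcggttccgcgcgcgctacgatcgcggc
Thrsp (GRCm38.p6, chr7:97417551-97417800, strand -): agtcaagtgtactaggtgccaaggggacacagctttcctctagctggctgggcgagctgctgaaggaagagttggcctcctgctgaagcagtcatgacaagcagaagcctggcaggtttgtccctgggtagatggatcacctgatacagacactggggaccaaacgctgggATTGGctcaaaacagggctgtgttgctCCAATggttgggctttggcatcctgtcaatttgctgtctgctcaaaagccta
Acacb (GRCm38.p6, chr5:114165268-114165517, strand +): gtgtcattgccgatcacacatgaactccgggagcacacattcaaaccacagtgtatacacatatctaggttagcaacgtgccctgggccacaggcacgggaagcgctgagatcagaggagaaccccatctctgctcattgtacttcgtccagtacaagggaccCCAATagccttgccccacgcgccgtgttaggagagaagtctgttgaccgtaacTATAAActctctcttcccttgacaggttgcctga
Pnpla3 (GRCm38.p6, chr15:84167566-84167815, strand +): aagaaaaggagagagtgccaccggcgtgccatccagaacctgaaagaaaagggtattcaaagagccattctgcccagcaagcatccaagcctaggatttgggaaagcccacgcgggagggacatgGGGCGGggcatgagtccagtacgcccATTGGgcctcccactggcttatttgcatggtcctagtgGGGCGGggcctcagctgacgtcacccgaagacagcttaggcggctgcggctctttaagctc
The CCAAT box is the site of NF-Y and the GC box that of Sp1, factors known to act with SREBP-1. Fasn held 3 CCAAT matches, at 90 to 86, 62 to 58 and 59 to 55 bases before the start, the last pair overlapping on opposite strands. Thrsp held 2, at 79 to 75 and 52 to 48 bases. Its RefSeq start lies inside the annotated gene, and so do both matches. Acacb, whose RefSeq start also lies inside the annotated gene, held 1 CCAAT match at 87 to 83 bases and a TATA box at 34 to 29 bases. Pnpla3, whose RefSeq start lies before the annotated one, held 1 CCAAT match and 2 GC boxes. All 10 genes matched a RefSeq promoter entry, 14 in all, of which 9 held CCAAT (33.8% of 32817 promoter windows of this length), 7 GGGCGG (32.7%), 1 TATAAA (12.4%) and 1, of Mlxipl, the E-box CACGTG (6.02%). A match is a description of the sequence, not a binding site.

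Around the 10 genes, the control of SREBP and of the liver X receptor was followed with 11 genes. None passed in edgeR (0 of 11), and the median log2 fold change was -0.02. At an unadjusted p under 0.05, 1 was lower, against 7.54% of all tested genes. DESeq2 called the same 1 lower, against 2.01% of its genes. That gene was Insig1, which retains the SREBP escort protein in the endoplasmic reticulum and is itself a SREBP target, with 135, 125 and 108 FPKM in CTR and 67.7, 66.0 and 83.1 FPKM in Rb1. All 3 Rb1 libraries were below all controls, as for 10.5% of all tested genes. Rb1 replicates 2 and 3, where Fasn was high, were included (Insig1 log2 fold change -0.71, SE 0.15, edgeR adjusted p = 0.195, DESeq2 adjusted p = 0.000941). Insig2 (0.14) and Mbtps1, the protease that first cuts SREBP (0.22), had edgeR adjusted p of 0.616 and 0.67.

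Of 8 tested genes of 9 that partner with or respond to ChREBP, 0 passed in edgeR or DESeq2 and the median was 0.14. There was 1 gene higher and 1 lower at an unadjusted p under 0.05, against 4.01% and 7.54% of all tested genes. Txnip, a glucose-responsive thioredoxin inhibitor, had 128, 194 and 205 FPKM in CTR and 273, 251 and 232 FPKM in Rb1, without overlap (log2 fold change 0.55, adjusted p = 0.402). Mlx, the dimer partner of ChREBP, had 4.77 ± 0.769 FPKM in CTR and 3.32 ± 0.464 FPKM in Rb1 (SD, n = 3 each; -0.49, adjusted p = 0.375), also without overlap, and Slc2a4, the insulin-responsive glucose transporter, had a value of 0.30. Among all tested genes 5.48% were higher and 10.5% lower in Rb1 without overlap. Txnip and Mlx share exon positions with Gm15441 and Psmc3ip on the opposite strand.

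Among 15 genes of acetyl-CoA, citrate and NADPH supply, 0 passed in edgeR or DESeq2, and the median was 0.10. Of these, 1 was higher at an unadjusted p under 0.05, against 4.01% of all tested genes. That 1 was H6pd, the pentose phosphate dehydrogenase of the endoplasmic reticulum, at 24.4 ± 4.62 FPKM in CTR and 33.9 ± 4.59 FPKM in Rb1 (SD, n = 3 each), a log2 difference of 0.51 (adjusted p = 0.34 in edgeR). Tkt, transketolase, had a value of 0.24 and Pdha1, of the pyruvate dehydrogenase complex, 0.23. Of the 10 genes listed as modulators of acetyl-CoA carboxylase, 0 passed in edgeR or DESeq2, and the median was 0.07. That list also holds Acacb, which is itself a carboxylase gene. At an unadjusted p under 0.05, 4 were higher, against 4.01% of all tested genes. They were Acacb, Prkaa1, Prkag2 and Stk11, the last named after its values were seen. Acacb was already picked out above, so it is counted again here and adds no new gene. Prkaa1, a catalytic subunit of the AMP-activated kinase that inhibits both carboxylases, had 8.83 ± 0.584 FPKM in CTR and 10.7 ± 1.75 FPKM in Rb1 (0.31, adjusted p = 0.41), and its regulatory subunit gene Prkag2, which overlaps antisense genes, had 6.20 ± 0.358 and 7.59 ± 0.781 FPKM (0.34, adjusted p = 0.423). The other catalytic subunit gene, Prkaa2, chosen after its values were seen, had 9.06 FPKM in CTR replicate 2 and 2.23 to 2.54 FPKM in the other 5 libraries.

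Of the 11 genes that act on the products, 0 passed in edgeR or DESeq2, 0 had an unadjusted p under 0.05, and the median was 0.08. Scd2, a desaturase, had 154, 108 and 113 FPKM in CTR and 39.5, 85.0 and 107 FPKM in Rb1. In FPKM its groups did not overlap, by 107 against 108 (log2 fold change -0.63, SE 0.37, edgeR adjusted p = 0.586). Gpam, the first acyltransferase of triglyceride synthesis, was also below all controls in FPKM in each Rb1 library. It had 28.5 ± 0.704 FPKM in CTR and 24.6 ± 1.95 FPKM in Rb1 (SD, n = 3 each, log2 fold change -0.17). Among all tested genes 10.5% were lower in Rb1 without overlap in FPKM. FPKM scales to library totals, and TMM factors of 0.956 (Rb1 replicate 2) to 1.056 (CTR replicate 1) can close gaps of this size. Lpin1, a phosphatidate phosphatase, had a value of 0.37. Elovl6, which elongates palmitate and was chosen after its values were seen, placed its Rb1 libraries as Fasn did, at 2.75, 2.80 and 3.26 FPKM in CTR and 1.51, 4.71 and 4.57 FPKM in Rb1. It was the 1 of these 11 with Rb1 replicate 1 below and Rb1 replicates 2 and 3 above all controls in FPKM (1.25% of all tested genes). On TMM-scaled values Scd1 joined it (2.73% of all tested genes). Rb1 replicate 1 was below all controls in FPKM for 5 of the 11, Scd2, Elovl6, Gpam, Agpat2 and Dgat2, against 24.1% of all tested genes.

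Of 10 tested relatives of the 10 genes (12 listed), 0 passed in edgeR and the median was 0.00. At an unadjusted p under 0.05, 2 were higher, against 4.01% of all tested genes. These were Acss3, a mitochondrial acyl-CoA synthetase, and Pnpla2, the triglyceride lipase ATGL. Acss3 had 11.7 ± 0.887 FPKM in CTR and 15.6 ± 1.35 FPKM in Rb1 (SD, n = 3 each), with a log2 value of 0.46 and an edgeR adjusted p = 0.271. DESeq2 called Pnpla2 higher (adjusted p = 0.0494), as it did 0.548% of its genes. Pnpla2 had 173, 188 and 226 FPKM in CTR and 266, 288 and 271 FPKM in Rb1 (0.53, edgeR adjusted p = 0.309). Rb1 replicate 1 was here above all controls, as for 32.3% of all tested genes in FPKM. Me3, a mitochondrial malic enzyme, was low at 0.301 ± 0.209 FPKM in CTR and 0.140 ± 0.0300 FPKM in Rb1 (-1.09, adjusted p = 0.497). Its highest value, 0.529 FPKM, was in CTR replicate 2, the library richest in muscle transcripts, and its lowest, 0.117 FPKM, in CTR replicate 1.

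Among 10880 other protein-coding genes averaging 5 CPM or more, those whose log2 CPM most resembled the mean standardized profile of the 10 over the 6 libraries were Ctso (Pearson r 0.992), Lars2 (0.987), Ifi205 (0.986), Slc22a17 (0.986), Gbe1 (0.985) and Col5a1 (0.985). Gbe1, the glycogen branching enzyme gene, had 5.63, 5.92 and 6.17 FPKM in CTR and 4.94, 7.67 and 7.64 FPKM in Rb1. The most opposed were Impact (-0.991), D16Ertd472e (-0.984) and Abhd17b (-0.982). Impact, a regulator of translation, had 24.5, 20.9 and 20.3 FPKM in CTR and 27.9, 14.4 and 15.3 FPKM in Rb1. With 6 points and this many genes such values describe the libraries and carry no test.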

How the data were processed

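RNA sequencing of 6 white adipose samples gave 1 table. CASAVA 1.8, TopHat2 2.0.6 and the mouse build mm10 are listed in the submitters' processing notes. No source used here names the counting tool, annotation release or strand setting. Per the file headers, the table carries the authors' raw counts for each Ensembl gene beside their FPKM. Deposited FPKM equalled the count over a gene length and the column total, to within 0.00984% over samples in 13169 genes with at least 10 counts in every sample. Symbols were paired for 21933 of 22040 genes, and coordinates and exon overlaps came from GENCODE M21 (GRCm38, the assembly of mm10). Promoters came from RefSeq on GRCm38.p6.

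Counts were tested with edgeR 4.0.16 in R 4.3.3 (TMM, a filter of 10 counts and a total of 15, quasi-likelihood test without covariates, 14093 genes, Benjamini-Hochberg threshold 0.05). DESeq2 1.42.0 was an alternative. Standard errors came from the F statistic. Every pair of samples differed by more than sampling noise (chi-square per degree of freedom at least 30.38), and all 6 were used. Both tools were tested on simulated data: edgeR made 8 false calls among 135, on 13972 genes, and DESeq2 59 among 228, on 14093 genes. Alternatives were other scalings and filters, a replicate block, and leaving out libraries.

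The 10 genes and the lists were chosen with earlier results of these data known. Genes named were the 10, the 3 of each of 6 pathway lists with the smallest p, the 6 most like and 3 most unlike the mean profile, and a few marked as chosen after their values were seen.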

Additional observations from a re-analysis of the deposited data

How the results depend on the processing

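No alternative brought any of the 10 genes past the threshold in edgeR or DESeq2, under 13 settings. Their median log2 fold change kept its sign in all 13, between 0.04 and 0.38 when 1 library was left out (0.39 with CTR replicate 2 and Rb1 replicate 1 both left out, a setting added after the data were seen). Acacb, Thrsp, Fasn, Acaca and Mlxipl also kept their sign, Mlxipl between 0.04 (without Rb1 replicate 3) and 0.33 (without Rb1 replicate 1). Over the 13 settings adjusted p ran from 0.218 to 0.962 for Fasn, 0.222 to 0.801 for Acaca, 0.0525 to 0.564 for Acacb, 0.121 to 0.728 for Thrsp and 0.368 to 1 for Pnpla3, DESeq2 included. With 1 library left out, values ran from -0.04 to 0.21 for Acly, -0.54 to 0.10 for Acss2, -0.12 to 0.40 for Me1, -0.10 to 0.31 for Srebf1 and -0.34 to 0.36 for Pnpla3. Signs changed for Acss2 (0.10) and Pnpla3 (0.36) without Rb1 replicate 1 and with both libraries left out (0.15 and 0.36), for Pnpla3 without CTR replicate 1 (0.00), and without Rb1 replicate 2 for Acly (-0.04), Me1 (-0.12) and Srebf1 (-0.10). The log2 ratio of Acacb to Acaca ran from -0.44 to 0.68 and the summed share from 0.0259 to 0.179 percentage points higher in Rb1 with 1 library left out.

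With 1 library left out, list medians ran from -0.05 (without Rb1 replicate 2) to 0.08 (without Rb1 replicate 1) for SREBP and liver X receptor control, 0.09 (without CTR replicate 2) to 0.19 (without CTR replicate 3) for ChREBP, 0.04 (without CTR replicate 1) to 0.20 (without CTR replicate 2) for supply, 0.04 (without Rb1 replicate 3) to 0.11 (without CTR replicate 2) for carboxylase modulators, 0.02 (without Rb1 replicate 3) to 0.12 (without CTR replicate 3) for products and -0.04 (without Rb1 replicate 2) to 0.08 (without CTR replicate 2) for relatives. Over all genes, DESeq2 called 80 higher and 294 lower, 2 of them in the pathway lists (Insig1 and Pnpla2), against 1 and 0 in edgeR. With 1 library left out edgeR called 1 to 2 higher (2 without Rb1 replicate 2) and 0 to 2 lower (2 without Rb1 replicate 1 or 2, 1 without Rb1 replicate 3), and 2 higher and 8 lower with both libraries left out. The cause was not tested. The labels state no pairing. Deviations of same-numbered samples from their group means correlated at 0.136, -0.109 and 0.018, and those of differently numbered samples at -0.265 to 0.262. With 3 libraries per group these values cannot settle whether replicate numbers pair the samples. With the replicate block edgeR called 1 gene, none of the 10. Thrsp then stood at 0.98 (SE 0.21 against 0.43 without the block, edgeR adjusted p = 0.276). Each of the 10 genes had 843 counts or more in each library, and no fit at another depth was made.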
